A study of Mus musculus with 23 samples.

Results

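Ephrins and their Eph receptors form a cell-surface signalling family, of which 10 genes are described here: the ephrins Efna1, Efna5, Efnb1 and Efnb2, and the receptors Epha1, Epha2, Epha4, Ephb2, Ephb3 and Ephb4. The mouse annotation used for the files (GENCODE vM21, genome build mm10) holds 22 family genes, 8 ephrins and 14 receptors, so the list covers 4 and 6 of them. These 10 genes were selected by name from the family with earlier results of the same libraries known. Their measured levels and differences may have entered that choice, and which values decided it is not given in the sources used here. Presence, levels and counts of members called are therefore given as a description of these 10 genes and not as evidence about the family.

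The study used small intestinal organoids, epithelial cultures grown from crypts, and small intestine of mice, all on the C57BL/6 strain. RNA-seq covered WT organoids (genotype VillinCre.ERT2.RPL22.HA) and Rptor fl/fl organoids (VillinCre.ERT2.Rptor.fl/fl), each as 2 organoid lines with 2 technical libraries per line, and stem cell enriched (SCe) organoids of the WT genotype as 3 libraries. SCe organoids were grown with 10 µM of the CHIR compound, an inhibitor of GSK3 that activates WNT signalling, and 1.5 mM valproic acid, an inhibitor of histone deacetylases. Ribosome footprints came from 3 libraries of SCe organoids, 3 of organoids labelled VillinCre.ERT2.Rptor.fl/fl.RPL22.HA, 3 of mice with Lgr5Cre.ERT2.RPL22.HA and 3 of mice with Lgr5Cre.ERT2.Rptor.fl/fl.RPL22.HA. RPL22.HA is a ribosomal protein with an HA tag that is switched on by Cre, so that tagged ribosomes can be pulled down from cells in which the Villin promoter (gut epithelium) or the Lgr5 promoter (stem cells) drives Cre. Rptor encodes Raptor, a core part of the mTORC1 kinase complex. The labels call the WT and Rptor fl/fl samples untreated, while the methods of the study describe induction with tamoxifen, which all Cre genotypes need for recombination. The labels give no age of the mice, and the methods describe young adults of both sexes.

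Ephrins and Eph receptors signal between touching cells. Ephrin-A ligands are held in the membrane by a lipid anchor and bind mainly EphA receptor tyrosine kinases, whereas ephrin-B ligands cross the membrane, bind mainly EphB receptors and can signal back into their own cell. In the intestinal crypt, EphB2 and EphB3 are known targets of WNT signalling that are high near the crypt base, ephrin-B ligands are higher towards the villus, and their repulsion keeps cells in position.

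Library totals were 23802944 to 67598878 assigned reads in RNA-seq, 1106178 to 8257457 in organoid footprints and 772077 to 8238388 in mouse footprints. Levels are given as CPM, the counts of a gene scaled to library size. Rptor was lower in the RNA-seq of Rptor fl/fl than of WT organoids (14.8 and 15.5 against 51.5 and 47.9 CPM, a log2 difference of −1.71 ± 0.0835 SE, edgeR adjusted p = 0.00516). In footprints, libraries labelled Rptor fl/fl held 17.3, 18.7 and 16.0 CPM of Rptor and SCe libraries 15.2, 41.9 and 21.0 CPM (adjusted p = 0.318), so Rptor footprints do not separate the groups and those libraries are named by their label throughout. In mice the log2 difference of Rptor was −0.28 ± 0.123 (adjusted p = 0.15). SCe replicate 1 stood apart in RNA-seq, with 248.8 CPM summed over 8 enterocyte markers against 6144 and 7166 in the other SCe libraries. In mice, the 8 enterocyte markers summed to 49308 to 60747 CPM while Lgr5, whose promoter drives Cre there, lay between 6.32 and 45.8 CPM, with the highest value in Rptor fl/fl mouse 1. Smooth muscle and immune markers were near 0 in organoid RNA-seq (sums of at most 1.62 and 1.19 CPM over 6 and 7 genes), while the immune sum was 12581 to 15486 CPM in mice.

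Promoter sequence is shown for 4 members whose RNA-seq levels were higher in Rptor fl/fl than in SCe organoids: Efna5, the member with the largest difference, and the 3 members with a match to a motif of interest here, Efnb2, Epha1 and Epha2. Each is the 250 bases before the RefSeq start site on build GRCm38.p6, 5′ to 3′ on the strand of the gene. They lie at chr17:62881318-62881567 (minus strand), chr8:8661243-8661492 (minus strand), chr6:42373269-42373518 (minus strand) and chr4:141300971-141301220 (plus strand). Capitals mark the TCF/LEF core TCAAAG, a motif of WNT-responsive transcription factors, and the TEAD motif GGAATG, bound by partners of YAP, on either strand (CTTTGA and CATTCC when reversed).
Efna5: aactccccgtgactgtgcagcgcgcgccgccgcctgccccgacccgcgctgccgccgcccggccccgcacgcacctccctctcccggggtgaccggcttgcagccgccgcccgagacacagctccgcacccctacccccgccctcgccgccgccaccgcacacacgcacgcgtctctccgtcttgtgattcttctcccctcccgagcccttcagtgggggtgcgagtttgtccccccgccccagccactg
Efnb2: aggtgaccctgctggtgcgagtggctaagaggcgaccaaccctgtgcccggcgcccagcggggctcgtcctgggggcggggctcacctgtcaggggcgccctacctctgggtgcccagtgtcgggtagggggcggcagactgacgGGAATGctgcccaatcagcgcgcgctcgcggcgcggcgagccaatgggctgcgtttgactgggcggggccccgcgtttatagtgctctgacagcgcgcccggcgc
Epha1: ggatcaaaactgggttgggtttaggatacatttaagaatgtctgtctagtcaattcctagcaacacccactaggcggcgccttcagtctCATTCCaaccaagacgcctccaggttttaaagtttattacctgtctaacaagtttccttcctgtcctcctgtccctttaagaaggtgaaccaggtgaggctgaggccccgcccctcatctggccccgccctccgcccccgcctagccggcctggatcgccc
Epha2: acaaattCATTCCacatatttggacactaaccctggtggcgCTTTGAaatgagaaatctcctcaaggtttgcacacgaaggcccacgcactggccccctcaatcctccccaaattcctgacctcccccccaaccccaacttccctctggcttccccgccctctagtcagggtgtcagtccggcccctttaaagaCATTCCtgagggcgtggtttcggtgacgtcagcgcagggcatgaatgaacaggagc
Epha2 held 1 TCF/LEF core, 209 bases before the start, and 2 TEAD motifs, 243 and 56 bases before it. Efnb2 and Epha1 held 1 TEAD motif each, 105 and 161 bases before the start, and the other 7 members held neither motif in this window. Over all 32851 RefSeq windows of the same length, 13.8% held the TCF/LEF core and 12.6% the TEAD motif. A match describes letters only.

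Levels were first compared between genes on a scale per length, the TPM values that the authors' Salmon run deposited, summed per gene. In WT organoids the ligand Efna1 was highest (77.5 ± 13.0 TPM, SD, n = 2 lines), followed by Ephb2 (44.7 ± 5.94) and Ephb4 (44.5 ± 0.589), whose lines overlapped. Efnb2, Efnb1, Ephb3, Epha1 and Epha2 followed between 33.4 and 17.0 TPM, with overlap only between Epha1 and Epha2, and Epha4 (2.55 TPM) and Efna5 (0.0229 TPM) were lowest. The order differed in Rptor fl/fl organoids, where Efna1 (60.8 ± 0.866 TPM) had the highest mean and Efnb2 (52.7), Epha2 (51.8), Ephb2 (46.9) and Ephb4 (45.1) followed, each of these 4 overlapping its neighbour, and Epha2 ranged from 39.1 to 64.6 TPM, across both values of Efna1. Ephb2 led in SCe organoids with 53.7 ± 23.8 TPM (n = 3), Ephb4 followed with 23.8 TPM, and from Ephb4 down to Efna1 (8.35 TPM) all neighbours overlapped. As a share of the summed TPM of the members, receptors took 52.5% in WT, 55.8% in Rptor fl/fl and 75.1% in SCe organoids.

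**Figure D1:**
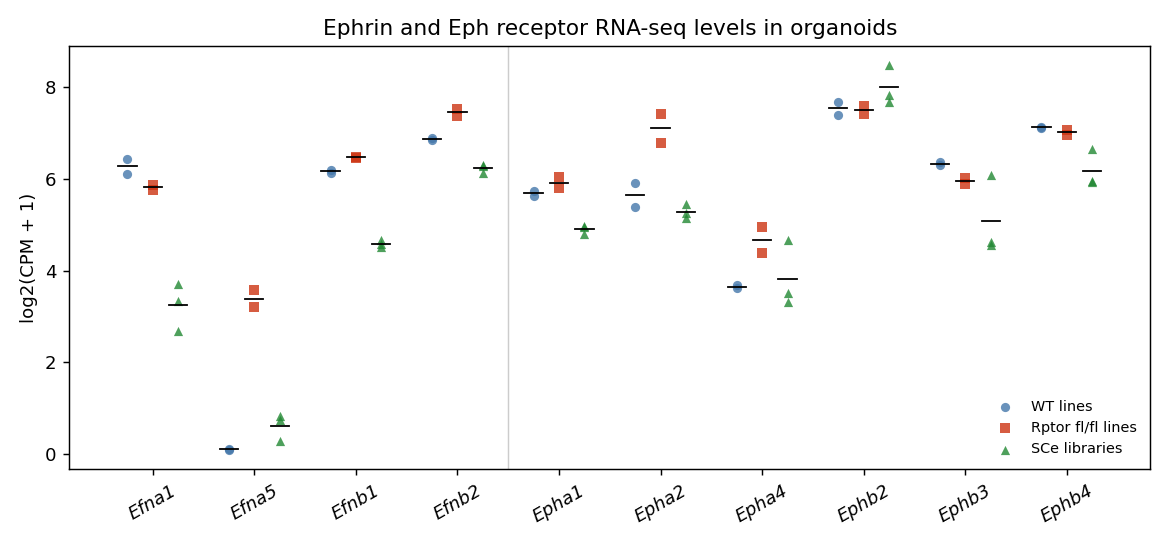
RNA-seq levels of the 10 members as log2(CPM + 1), 1 point per organoid line (WT, Rptor fl/fl) or library (SCe), with a bar at the group mean and ephrins left of the grey line. Efna5 lay between 8.24 and 10.8 CPM in Rptor fl/fl lines and at or under 0.0807 CPM in WT lines, and Efna1, Efnb1, Efnb2 and Epha1 were lowest in the SCe libraries.

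The comparison of Rptor fl/fl with WT organoids asked how RNA levels of the family differed between these groups. By their labels, the groups differ in Rptor and also in the RPL22.HA allele, which the Rptor fl/fl genotype lacks here. SCe organoids carry that allele too, as they have the WT genotype. The part of this allele in the differences was not tested, so rises and falls describe the labelled groups. Among the ligands, Efna5, a lipid-anchored ephrin that binds EphA receptors and EphB2, held 0.0567 and 0.0807 CPM in WT lines (3 and 4 reads) and 10.8 and 8.24 CPM in Rptor fl/fl lines (560 and 471 reads). It was thus close to absent from WT lines and present in both Rptor fl/fl lines, a log2 difference of 7.08 ± 0.304 (adjusted p = 0.00516). From summed reads the ratio was 143, with an exact 95% interval of 69.3 to 357 that covers counting error only. Efnb2, a transmembrane ligand of EphB4 and other EphB receptors, stood at 114 and 119 CPM in WT and at 165 and 184 CPM in Rptor fl/fl lines. Its lines did not overlap and the level rose by 0.59 ± 0.0748 on the log2 scale (adjusted p = 0.0157). Efnb1, the ephrin best known for pairing with EphB2 and EphB3, rose by less, from 72.3 and 69.1 to 87.4 and 88.4 CPM (0.31 ± 0.0534, adjusted p = 0.0233). Efna1, a ligand of EphA2, pointed the other way, at 86.0 and 68.4 CPM in WT and 53.4 and 57.7 CPM in Rptor fl/fl lines, without passing the threshold (−0.48 ± 0.123, adjusted p = 0.0533).

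Of the EphA receptors, Epha2, a receptor widely found in epithelia, held 59.5 and 41.2 CPM in WT and 171 and 109 CPM in Rptor fl/fl lines. Both Rptor fl/fl lines were above both WT lines, although they differed among themselves (1.47 ± 0.28, adjusted p = 0.0283). Epha4, which binds ephrins of both classes, rose from 11.8 and 11.3 to 29.8 and 20.0 CPM (1.11 ± 0.206, adjusted p = 0.0272). Epha1, an epithelial member of the EphA class, was at 48.4 and 52.5 against 54.7 and 64.9 CPM and did not pass (0.25 ± 0.104, adjusted p = 0.15). Among the crypt receptors, Ephb3 fell from 81.3 and 77.4 CPM to 58.1 and 64.2 CPM (−0.38 ± 0.0718, adjusted p = 0.0284). Ephb2, at 203 and 169 against 191 and 169 CPM, overlapped (−0.046, 95% interval −0.348 to 0.257, adjusted p = 0.796). Ephb4, the partner receptor of ephrin-B2, was at 138 and 139 against 124 and 134 CPM (−0.11 ± 0.0625, adjusted p = 0.27).

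In all, 5 of 10 members were called higher and 1 lower, beside 11.6% of the 14131 genes tested that were called higher and 11% lower. The median log2 difference was 0.28 over the members and −0.0049 over all genes. The 8 stem cell markers summed to 3795 and 5358 CPM in WT and 1049 and 2272 CPM in Rptor fl/fl lines, and the 7 Paneth cell markers to 5284 and 6631 against 969 and 2024 CPM, while the 6 goblet cell markers were higher in Rptor fl/fl lines (2972 and 4135 against 1736 and 1876 CPM). Their part in these differences was not tested, and in bulk samples fewer cells of a type and less RNA per cell cannot be told apart. With 2 lines per group the calls were fragile, and a fit that leaves out 1 line rests on a lone line in its group. Efnb1 lost its call without any 1 of the 4 lines (adjusted p up to 0.148), Ephb3 without each but Rptor fl/fl line 2 (up to 0.132), Epha4 without either WT line (up to 0.0817), Epha2 without WT line 2 or Rptor fl/fl line 1 (up to 0.0643) and Efnb2 without WT line 1 (0.0573). Efna5 was the member called in each of these fits, and Efna1 passed without WT line 2 (adjusted p = 0.0311).

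The labels describe the treatment of SCe organoids as stem cell enrichment. The 8 stem cell markers summed to 1020 to 2049 CPM there, below the WT lines, but without Olfm4 to 967 to 1914 CPM against 925 and 931 CPM in WT and 528 and 591 CPM in Rptor fl/fl lines. Goblet cell markers (247 to 479 CPM) and the 8 epithelial markers (4384 to 4800 against 7985 to 8556 CPM) were lower in SCe libraries than in all WT and Rptor fl/fl lines. The part of these cell types in the differences was not tested. Comparisons of Rptor fl/fl and of WT with SCe share groups with the one above and with each other, so their values are given side by side and are not independent. Efna1 held 5.38, 12.02 and 9.17 CPM in SCe libraries, below every WT and Rptor fl/fl line, which gave −3.09 ± 0.344 for SCe against WT (adjusted p = 0.00346) and 2.64 ± 0.325 for Rptor fl/fl against SCe (adjusted p = 0.00384). Efnb1 followed the same order with 24.4, 21.7 and 22.8 CPM in SCe (−1.60 ± 0.0768, adjusted p = 0.00114, and 1.94 ± 0.08, adjusted p = 0.000978). Efnb2, at 69.4, 78.6 and 76.9 CPM in SCe, lay below both other groups (−0.62 and 1.22, adjusted p = 0.00484 and 0.00137). Efna5 held 0.769, 0.22 and 0.671 CPM in SCe (23, 14 and 39 reads), between the WT and Rptor fl/fl lines. Its ratio from summed reads was 7.33 for SCe against WT (exact 95% interval 3.39 to 18.9, counting error only), with an adjusted p of 0.0302 in the fit, and 19.5 for Rptor fl/fl against SCe (15.5 to 24.99, adjusted p = 0.00457).

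Epha1 was at 26.7, 30.4 and 29.8 CPM in SCe libraries, lower than in WT (−0.78 ± 0.0909, adjusted p = 0.00389) and than in Rptor fl/fl organoids (1.05 ± 0.11 for Rptor fl/fl against SCe, adjusted p = 0.00263). Epha2 stood at 42.8, 34.3 and 37.2 CPM in SCe, which overlapped the WT lines (adjusted p = 0.156) and lay below both Rptor fl/fl lines (1.88 ± 0.211, adjusted p = 0.00308). For Ephb4, SCe libraries held 99.7, 60.4 and 60.6 CPM, lower than both other groups (−0.90 ± 0.244, adjusted p = 0.0371, and 0.81 ± 0.247, adjusted p = 0.0485). The library that differed was replicate 1, and the same library was high for 3 further receptors. Ephb2 had 357 CPM there against 228 and 205, Ephb3 67.0 against 23.7 and 22.7, and Epha4 24.2 against 8.95 and 10.3 CPM. None of these 3 receptors passed the threshold in either comparison with all SCe libraries (adjusted p from 0.15 to 0.585).

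Against SCe, 7 members were called higher in Rptor fl/fl organoids and 0 lower by edgeR, beside 21% and 21.8% of the 15103 genes tested. The median log2 difference was 1.14 over the members and −0.014 over all genes, and 7 members had an unadjusted p under 0.05, with 7 called by DESeq2. In SCe against WT, 1 member was called higher and 5 lower, beside 22.4% and 19.9% of 14925 genes (medians −0.70 and 0.023). Without SCe replicate 1 all 10 members were called in Rptor fl/fl against SCe, now with Ephb3 (1.40, adjusted p = 0.000221), Epha4 (1.37, adjusted p = 0.00314) and Ephb2 (−0.27, adjusted p = 0.0472), while the share of all genes called rose to 60.9%. In SCe against WT, 7 members were called without that library, beside 64.2% of all genes, with Ephb3 at −1.76 (adjusted p = 0.000106) and Epha4 turned to −0.24 (adjusted p = 0.123). The call of Ephb4 rested on single libraries in both comparisons, since without any 1 of the other 4 libraries or lines its adjusted p rose to between 0.0923 and 0.194. For SCe against WT, 3 members were called without WT line 2, where Efnb2 had an adjusted p of 0.0504, and Efna5 lost its call without either WT line or SCe replicate 3 (0.171, 0.139 and 0.0838). SCe libraries summed to 70.7 to 116 CPM over 8 stroma markers against 1.92 to 3.87 CPM in the WT and Rptor fl/fl lines. Vim alone made up 93.0 to 95.6% of the SCe sums. Without Vim the sums were still higher in SCe libraries, at 4.93 to 6.59 CPM against 0.677 to 0.927 CPM in the lines. Col3a1 and Lum had 0 reads in SCe libraries and in the lines alike. The part of these markers in the differences was not tested.

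The reads of Ephb2 were also split differently over its transcripts. The transcript Ephb2-202, whose annotated length is 10902 bases against 4804 for Ephb2-201, took an estimated 30.3% and 28.0% of the reads of the gene in WT lines and 30.0% and 29.8% in Rptor fl/fl lines. In SCe libraries it took 53.9%, 48.6% and 45.5%, above every line of the other groups. This is a description of Salmon's split of shared sequence, with no test. For 7 members 1 transcript took at least 93.7% of the reads in each RNA-seq group, and the others were Ephb2, Ephb4 and Epha4, the last with 89.0% in SCe organoids.

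**Figure D2:**
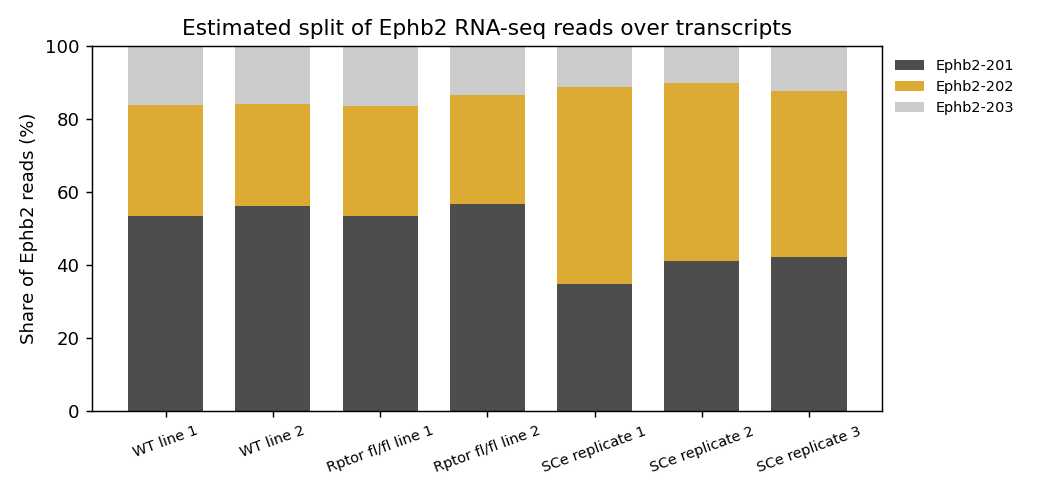
Share of Ephb2 RNA-seq reads, in percent, that was assigned to each of 3 transcripts, 1 bar per organoid line or SCe library. Ephb2-202 took 28.0 to 30.3% in the WT and Rptor fl/fl lines and 45.5 to 53.9% in the SCe libraries.

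Footprints show which of these RNAs were on ribosomes. Organoid footprints were counted on coding sequences, so their levels per length are reads per base of that entry, scaled to the sum over all entries of a library. Per length, Ephb3 (70.1 ± 3.45) and Efna1 (67.0 ± 9.18, n = 3) led and overlapped in libraries labelled Rptor fl/fl. In SCe libraries Ephb2 (47.0 ± 11.6) and Ephb3 (43.2 ± 24.4) led and overlapped. Efna1 footprints were 55.8, 45.1 and 45.7 CPM in libraries labelled Rptor fl/fl and 11.4, 18.8 and 10.2 CPM in SCe libraries. All 3 labelled Rptor fl/fl were above all SCe libraries (1.94 ± 0.264, adjusted p = 0.00276). Epha4 went the other way, with 12.3, 16.2 and 12.1 CPM against 29.8, 28.2 and 55.5 CPM in SCe (−1.53 ± 0.298, adjusted p = 0.0106). Its groups did not overlap, but the call was lost without the library labelled Rptor fl/fl replicate 1 or replicate 3 (adjusted p = 0.0545 and 0.0637).

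The remaining ligands did not pass. Efnb1 held 32.4, 26.7 and 35.2 CPM in libraries labelled Rptor fl/fl against 10.9, 22.2 and 24.5 CPM in SCe (0.69 ± 0.295, adjusted p = 0.144), and Efnb2 23.6, 21.9 and 20.3 against 10.9, 10.3 and 19.4 CPM (0.62 ± 0.274, adjusted p = 0.159). Neither pair of groups overlapped. Epha2 footprints were 29.9, 30.7 and 25.3 against 33.1, 35.9 and 29.4 CPM and overlapped (−0.18, 95% interval −0.622 to 0.254, adjusted p = 0.552). Epha1, Ephb2, Ephb3 and Ephb4 differed by 0.62, −0.53, 0.21 and −0.11 on the log2 scale (adjusted p = 0.115, 0.0837, 0.51 and 0.784). Efna5 had 0 footprints in each of the 3 libraries labelled Rptor fl/fl, where a count of 0 allows up to 0.501, 0.470 and 0.363 CPM, and 1, 0 and 0 in SCe libraries, so it was not tested. Among 269 other genes whose RNA-seq level in both Rptor fl/fl lines lay in the range of Efna5 (8.24 to 10.8 CPM), 8 (2.97%) had no footprint in the 3 libraries and the median was 149 footprints in all. This set was chosen after the value of Efna5 was seen. It was matched on RNA-seq of other organoids than the footprint libraries, and not on WT or SCe RNA-seq, where Efna5 was far lower. Whether the footprint libraries held Efna5 RNA was not tested.

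Of the 9 members tested in footprints, 1 was called higher and 1 lower in libraries labelled Rptor fl/fl, beside 6.63% and 9.84% of the 10817 genes tested (median 0.21 over the members and −0.023 over all genes). Without SCe replicate 3, the deepest SCe footprint library, 4 members were called, beside 20.3% of all genes, with Efnb2 at 1.06 (adjusted p = 0.0222) and Ephb2 at −0.68 (adjusted p = 0.019). The 8 stem cell markers summed to 5243 to 5568 CPM in libraries labelled Rptor fl/fl and 1719 to 3379 CPM in SCe, but Olfm4 made up 82.4 to 84.0% of the former sum, and without Olfm4 the order was the opposite, at 893 to 920 against 1304 to 2219 CPM. Lgr5 was at 206 to 212 against 378 to 640 CPM. The enterocyte markers summed to 8303 to 8811 against 983 to 3599 CPM and the goblet cell markers to 3197 to 5199 against 1185 to 1572 CPM. Their part in the differences was not tested.

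**Figure D3:**
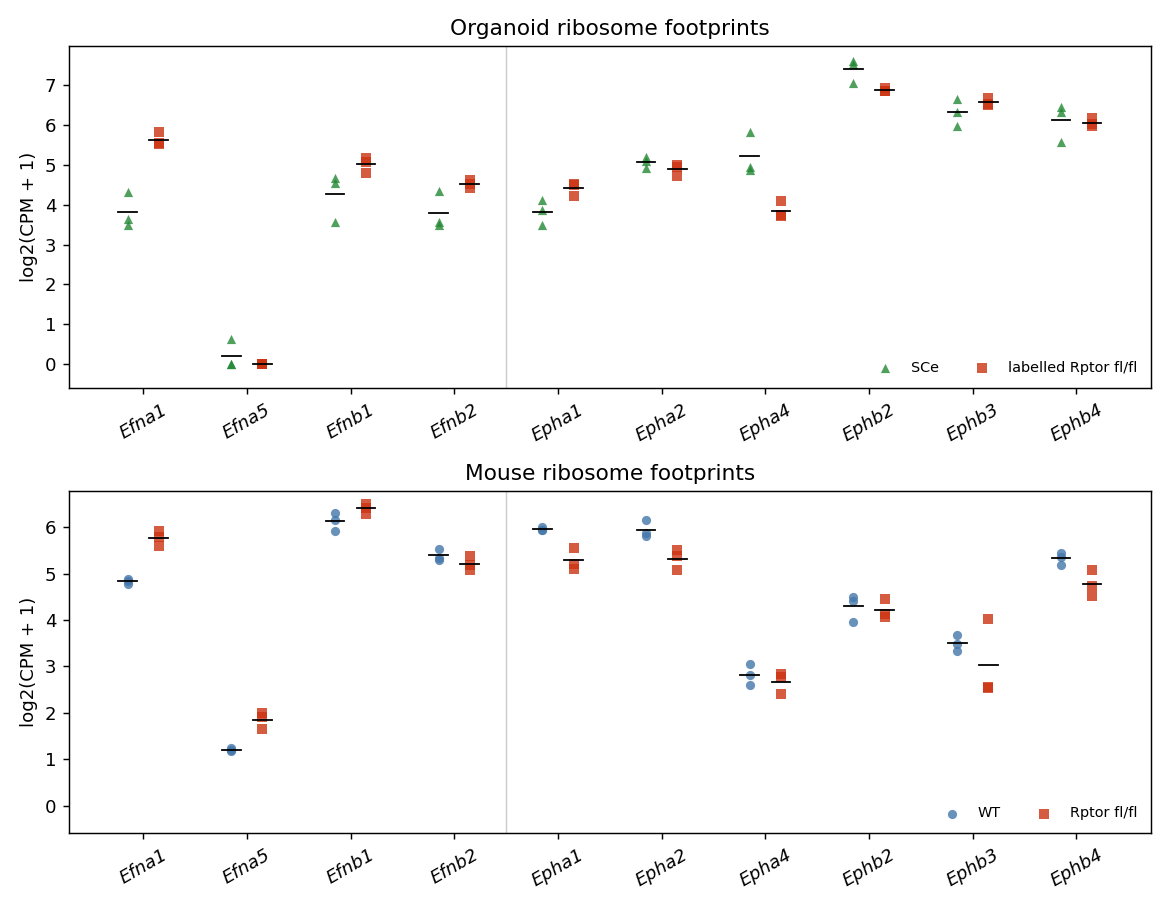
Ribosome footprints of the members as log2(CPM + 1), 1 point per library with a bar at the group mean, for organoids (upper) and mice (lower), ephrins left of the grey line. Efna1 was higher in the organoid libraries labelled Rptor fl/fl and in Rptor fl/fl mice, and Efna5 had 0 footprints in the organoid libraries labelled Rptor fl/fl and between 1.26 and 2.96 CPM in mice.

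Translation efficiency, the footprint difference minus the RNA-seq difference between Rptor fl/fl and SCe, was fitted in a single model over both assays. Epha2 was 1.88 higher in RNA-seq but not in footprints, and the fitted value of footprints minus RNA-seq was −2.002 ± 0.264 (adjusted p = 0.00682). This value takes RNA-seq from other organoids than the footprint libraries, whose Rptor did not separate from SCe. Lgr5 was at 206 to 212 CPM in those footprints against 378 to 640 CPM in SCe footprints. In RNA-seq it was at 44.4 and 73.9 CPM in Rptor fl/fl lines against 219 to 337 CPM in SCe libraries. CPM of footprints and of RNA-seq are not on the same scale. Whether the RNA-seq lines represent the RNA of the footprint libraries was not tested. Epha4 (−2.27 ± 0.572, adjusted p = 0.0606) and Efnb1 (−1.19 ± 0.327, adjusted p = 0.0779) had values of the same sign without passing. Ephb2 lay at 0.065 (95% interval −0.613 to 0.743, adjusted p = 0.941), and the other 5 members tested between −0.87 and −0.36. By edgeR 0 of 9 members were called higher and 1 lower, beside 1.12% and 1.81% of 10747 genes (medians −0.63 and −0.031), and 4 members had an unadjusted p under 0.05. DESeq2 called 3 members (Epha2, Epha4 and Efnb1), beside 12.3% of all genes. Without RNA-seq SCe replicate 1, 4 members were called (Epha2, Epha4, Ephb3 and Ephb4), and without footprint SCe replicate 1 also 4 (Epha2, Epha4, Ephb4 and Efnb1), beside 6.58% and 8.51% of all genes. Epha2 was called without each library in turn but not with a replicate block (adjusted p = 0.0586), where no member was called.

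RNA-seq of WT organoids was set beside these values because Rptor footprints did not separate libraries labelled Rptor fl/fl from SCe. For Epha2 the footprint difference from SCe was −0.18, the RNA-seq difference of Rptor fl/fl from SCe 1.88 and that of WT from SCe 0.38. For Epha4 the values were −1.53, 0.79 and −0.35, and for Efnb2 0.62, 1.22 and 0.62. For Efna1 they were 1.94, 2.64 and 3.09, for Ephb3 0.21, 0.70 and 1.06 and for Ephb4 −0.11, 0.81 and 0.90. The footprint value lay below both RNA-seq values for each of the 9 members but Efnb2, where it was close to WT, and Ephb2. The 3 values of Ephb2 were almost equal. The nearer RNA-seq value was thus mostly the lower of the pair, which is no measure of likeness to WT or Rptor fl/fl. These values were not compared with those of all genes and describe these members only. Footprint and RNA-seq differences are also unlike measures, and translation may differ between the groups. Footprints of WT organoids were not analysed here, and the parts of genotype and culture medium in the footprint values cannot be told apart.

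**Figure D4:**
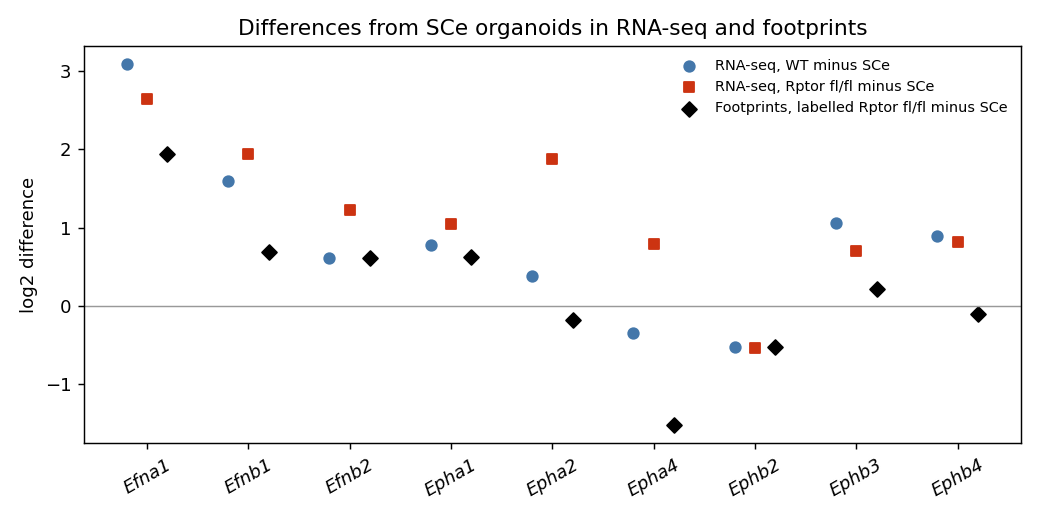
Log2 differences from SCe organoids for the 9 members tested in all 3 comparisons: RNA-seq of WT (circles), RNA-seq of Rptor fl/fl (squares) and footprints of libraries labelled Rptor fl/fl (diamonds). The footprint value of Epha2 (−0.18) lay below the RNA-seq values of both WT (0.38) and Rptor fl/fl (1.88), and the 3 values of Ephb2 lay between −0.55 and −0.52.

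The in vivo libraries compared footprints of Rptor fl/fl and WT mice. Mouse footprints were counted on entries that for most genes hold the 5′ region as well as the coding sequence, so levels are not set against those of organoids. Per length, Efnb1 (45.97 ± 6.57) and Efna1 (44.9 ± 1.85, n = 3) led and overlapped in WT mice, while Efna1 (84.3 ± 9.01) led in Rptor fl/fl mice. Efna1 held 26.5, 27.9 and 28.5 CPM in WT mice and 47.4, 59.7 and 54.4 CPM in Rptor fl/fl mice. The groups did not overlap (0.95 ± 0.13, adjusted p = 0.000163). Efnb1, at 78.4, 59.4 and 70.5 against 76.8, 84.9 and 90.2 CPM, overlapped (0.31 ± 0.11, adjusted p = 0.0762), and so did Efnb2 at 45.5, 39.7 and 38.4 against 32.9, 40.5 and 35.2 CPM (−0.15 ± 0.131, adjusted p = 0.53). Efna5 counts were 1, 3 and 7 for WT and 9, 9 and 17 for Rptor fl/fl mice, or 1.26 to 1.37 against 2.15 to 2.96 CPM, too few for the test. The ratio of summed footprints was 1.78 (exact 95% interval 0.885 to 3.89, counting error only).

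3 receptors fell in Rptor fl/fl mice. Epha1 held 63.2, 60.7 and 60.1 CPM in WT mice and 33.3, 45.98 and 35.9 CPM in Rptor fl/fl mice (−0.67 ± 0.129, adjusted p = 0.00256). Epha2 held 70.8, 54.8 and 57.5 against 32.9, 40.5 and 44.3 CPM (−0.56 ± 0.134, adjusted p = 0.0112), and Ephb4 35.4, 40.2 and 42.4 against 32.6, 21.9 and 25.5 CPM (−0.61 ± 0.153, adjusted p = 0.0153). In all 3 the groups did not overlap. Epha4, Ephb2 and Ephb3 overlapped and differed by −0.17, −0.15 and −0.52 (adjusted p = 0.785, 0.669 and 0.421). Ephb3 was uneven in Rptor fl/fl mice, with 15.2 CPM in mouse 1 against 4.87 and 4.80 CPM, and mouse 1 also held the highest Lgr5 level.

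Of 9 members tested in mice, 1 was called higher and 3 lower, beside 7.47% and 5.97% of the 11515 genes tested (medians −0.17 and −0.015). Without Rptor fl/fl mouse 1, 6 members were called, beside 16.5% of all genes, with Ephb3 at −1.15 (adjusted p = 0.00689) and Efnb1 at 0.37 (adjusted p = 0.0239). Without WT mouse 3, 2 were called (Epha2 adjusted p = 0.0565, Ephb4 0.133), and Ephb4 also lost its call without WT mouse 2, Rptor fl/fl mouse 2 or Rptor fl/fl mouse 3 (0.0572, 0.0838 and 0.0632). The 8 endothelial markers summed to 76.2 to 86.6 CPM in WT and 100 to 110 CPM in Rptor fl/fl mice, the 6 goblet cell markers to 21743 to 22149 against 25419 to 28416 CPM, and the 7 immune markers to 14897 to 15486 against 12581 to 13744 CPM. Enterocyte markers (49308 to 50817 against 55717 to 60747 CPM), stroma markers (1050 to 1071 against 1297 to 1550 CPM) and Paneth cell markers (9694 to 10482 against 5667 to 9304 CPM) did not overlap either. Most of the immune sum came from Igha alone, with 97537 reads in WT and 135360 in Rptor fl/fl mice before scaling for depth. Cd74 was next with 21754 and 39368 reads. Ephb4 and Efnb2 are known from endothelium, and the part of these cell types in the differences was not tested.

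**Figure D5:**
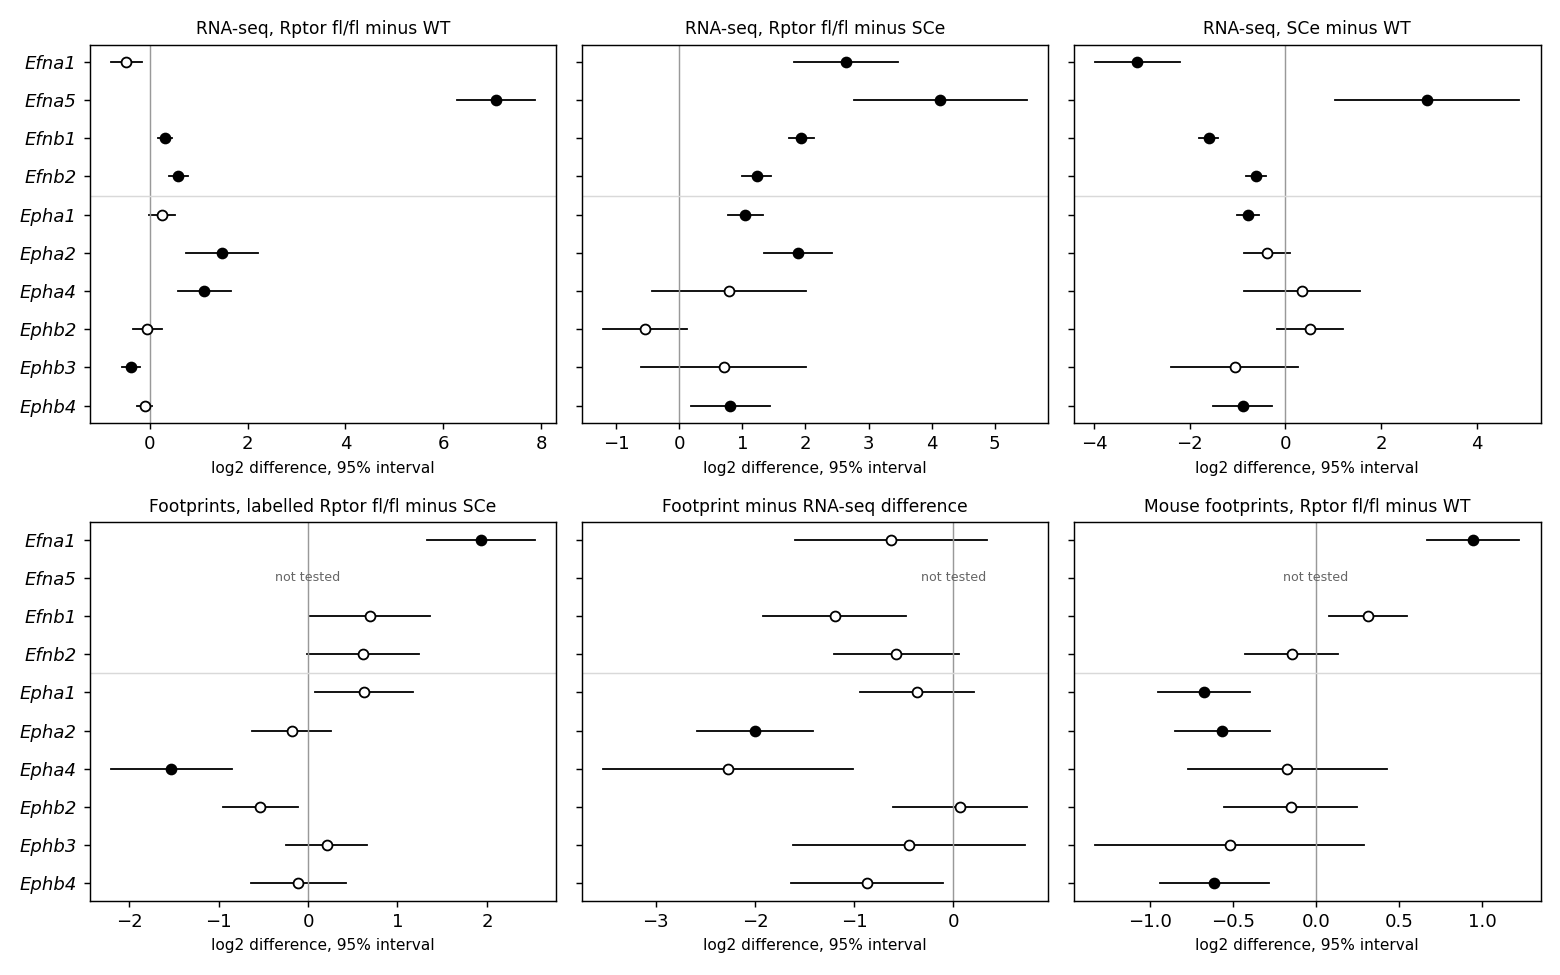
Log2 differences of the members with 95% intervals in the 6 comparisons, with filled points for an adjusted p under 0.05 (edgeR over all genes) and ephrins above the grey line. Efna1 differed by 0.95 in mouse footprints and by −0.48 in organoid RNA-seq (not called), and Epha2 by 1.47 in organoid RNA-seq and −0.56 in mouse footprints.

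Together the 10 members held 91.9% of the summed TPM of the 22 genes in WT, 94.0% in Rptor fl/fl and 80.7% in SCe organoids. Efna4, at 17.9, 15.1 and 10.6 TPM in WT, Rptor fl/fl and SCe organoids, and Efna3, at 3.76, 3.05 and 21.8 TPM, were the highest of the 12. Efna3 was higher in SCe than in WT (2.54 ± 0.12, adjusted p = 0.00114) and lower in Rptor fl/fl than in SCe organoids, in RNA-seq (−2.94 ± 0.236, adjusted p = 0.00156) and in footprints of libraries labelled Rptor fl/fl (−2.11 ± 0.397, adjusted p = 0.00914). In Rptor fl/fl against WT organoids, Ephb6, a receptor without kinase activity, was higher (3.02 ± 0.546, adjusted p = 0.0256) and Efna4 lower (−0.37 ± 0.0819, adjusted p = 0.0385). Against SCe, Efna2 and Epha8 were also lower in Rptor fl/fl, and in SCe against WT, Efna2, Efnb3, Epha8 and Ephb6 were also higher, so that 5 of the 10 tested were called higher and 0 lower (by edgeR, with 5 at an unadjusted p under 0.05), beside 22.4% and 19.9% of all genes tested. Epha7 (3.01 TPM in WT), Epha3, Epha5 and Epha10 exceeded Efna5 in WT organoids and were called in no comparison.

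Partners and effectors of Eph signalling were read from a list of 48 genes, of which 44 to 46 were tested; those named have the smallest adjusted p in each comparison. In Rptor fl/fl against WT organoids 6 were called higher and 9 lower, led by Yes1, a SRC family kinase (−0.52 ± 0.0607, adjusted p = 0.0134), and Sipa1l1, a regulator of Rap GTPases (−0.52 ± 0.069, adjusted p = 0.0165). Against SCe 20 were higher and 7 lower in Rptor fl/fl, led by the SRC family kinase Fyn (−4.89 ± 0.248, adjusted p = 0.00103) and the adaptor Grb7 (1.08 ± 0.0759, adjusted p = 0.00121), and in SCe against WT 9 were higher and 22 lower, led by Grb7 (−1.19 ± 0.067, adjusted p = 0.00119) and the phosphatase Ptpn13 (8.48 ± 0.476, adjusted p = 0.00119). In organoid footprints 5 were higher and 4 lower, led by Fyn (−4.33 ± 0.555, adjusted p = 0.00221) and Ptpn13 (−8.00 ± 1.25, adjusted p = 0.00785), where fitted values this large depend on the prior count. In mice 7 were higher and 5 lower, led by the endocytic scaffold Itsn1 (−1.50 ± 0.154, adjusted p = 8.23e-06) and Sdcbp, or syntenin (0.43 ± 0.0711, adjusted p = 0.000831). In translation efficiency edgeR called 0 of 44, with 10 at an unadjusted p under 0.05 and the smallest adjusted p for Crk (0.0685) and Pick1 (0.0825). The same background shares apply to these counts.

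Across the 7 RNA-seq lines and libraries, the genes whose log2(CPM + 1) followed Ephb2 most closely among 13914 genes were Dtx4 (Pearson r = 0.994), Sympk (0.988), Kremen1 (0.982), Tox4 (0.981) and Smc5 (0.98). For Ephb3 they were Tnrc6b (0.996), Slco4a1 (0.989), Tusc2 (0.988), Tmem189 (0.988) and Cactin (0.988). These are descriptions over 7 points that share 3 groups, and for Ephb2 all 5 genes, like Ephb2 itself, had their highest level in SCe replicate 1.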

How the data were processed

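The authors quantified trimmed reads with Salmon on GENCODE vM21 sequences; the submitters' processing notes name cutadapt 1.18 and Salmon 1.1.0. The deposited files hold, for each sequence, an estimated count, not scaled for depth, and TPM. RNA-seq was counted on 66244 transcripts, organoid footprints on 59120 coding sequences beside 44641 entries for 5′ regions, which were left out of gene counts, and mouse footprints on 65862 sequences. A table of the authors' own translation efficiency comparison was not used. The members and gene lists were chosen with earlier results of these data known.

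Estimated counts were summed per gene, and per organoid line over its technical libraries, and rounded. In R 4.3.3, edgeR 4.0.16 filtered genes (filterByExpr), scaled by TMM within each assay and applied the quasi-likelihood test with Benjamini-Hochberg adjustment over all genes at 0.05, separately for each of 6 comparisons. All adjusted p-values come from these fits unless DESeq2 1.42.0, an alternative, is named. CPM levels use a single TMM scaling per assay. The CPM of footprints on 5′ regions and the CPM limits for low counts are instead scaled to library totals without TMM. Named genes were the members, family genes called or above the lowest member's TPM, and the 2 pathway genes with the smallest adjusted p per comparison. The paper counts the 2 WT and 2 Rptor fl/fl organoid lines of the RNA-seq, and the 3 mice per group, as biological replicates. The labels number organoids and mice but do not say whether organoids came from separate animals or cultures. The p-values measure the spread between these samples, which for organoids may be technical in part. The scripts were checked on data with known changes. Intervals and limits of 0 counts cover counting error only.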

Additional observations from a re-analysis of the deposited data

Results flagged for a closer look

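Epha4 in WT organoids had 1 technical library, at 12.3 CPM, farther from the other 3 libraries (11.0 to 11.3 CPM) than Dixon's 95% limit allows. It was the case for 1 of 20 member and group combinations with 4 libraries. The limit assumes independent values, but the libraries are technical ones from 2 lines and the members share them. How often chance gives such a library is therefore not known here.

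The Rptor fl/fl against SCe difference of Epha2 was not the same in footprints and RNA-seq, by a log2 difference of −2.002 in the test of the difference itself.

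Rptor fl/fl and WT samples separated in opposite directions in organoid RNA-seq and mouse footprints for 3 members. Efna1 was lower in both Rptor fl/fl lines and higher in all 3 Rptor fl/fl mice (0.95 in mice), while Epha1 (−0.67 in mice) and Epha2 (−0.56 in mice) were higher in the lines and lower in the mice. The organoid differences of Efna1 and Epha1 did not pass the threshold. With 2 organoid lines per group, separation alone is a weak criterion, and the share of all genes that separate in opposite directions was not counted. The difference between these systems was not tested, and assay, tissue and counted sequence differ as well.

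Organoid footprints on the 5′ regions, which enter no comparison, were higher in every library labelled Rptor fl/fl than in every SCe library for Efna1 (39, 42 and 58 footprints, at least 6.25 CPM, against 5, 0 and 4, at most 2.35 CPM) and for Efnb1 (211, 202 and 239 footprints, at least 27.8 CPM, against 18, 31 and 25, at most 26.5 CPM). For Efnb1 they made up 45.3 to 54.6% of all footprints of the gene in libraries labelled Rptor fl/fl and 19.1 to 54.4% in SCe libraries. For Efna1 these shares were 10.4 to 13.4% and 0 to 19.2%. Coding footprints of both genes separated in the same direction, and the share of all 5′ regions that separate was not counted.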

How the results depend on the processing

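Of the recomputed counts of members called, 64 stayed within 1.5 times the reported count and 15 did not. With all 3 RNA-seq groups in a single fit, 3 members were called in Rptor fl/fl against WT. With an offset for effective length, 1 was called in organoid footprints and 2 in mice. In translation efficiency DESeq2 called 3. Leaving out each line or library gave 2 to 5 members in Rptor fl/fl against WT, 6 to 10 in Rptor fl/fl against SCe, 3 to 7 in SCe against WT, 1 to 4 in organoid footprints, 1 to 4 in translation efficiency and 2 to 6 in mice. A lone line is then assumed to vary like the other group. The share of all genes called also moved between fits, as given above for some of them, so these counts alone cannot be read against a fixed background. The causes were not tested.

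Of the recomputed differences of single members, 670 kept their direction and side of the threshold, 42 lost and 26 gained a call, and 10 changed sign, the last all where the reported difference was not called. With a library left out, Ephb2 ranged from −0.17 to 0.091 in Rptor fl/fl against WT, from −0.20 to 0.21 in translation efficiency (−0.17 with the length offset) and from −0.30 to 0.087 in mice, Epha4 from −0.24 to 0.60 in SCe against WT and Ephb4 from −0.34 to 0.11 in organoid footprints, and the translation efficiency of Ephb3 was 0.45 with the length offset.

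Replicate numbers are shared by groups, but numbered samples did not vary together in footprints (correlations from −0.044 to 0.034), and RNA-seq offers only 2 pairs (0.144 to 0.303), so the numbers were not taken as pairs. With a replicate block, 8, 6 and 4 members were called in the 3 RNA-seq comparisons, 2 in organoid footprints, 0 in translation efficiency (adjusted p of Epha2 0.0586) and 4 in mice. The share of all genes called in these fits is not given here, so the counts have no background beside them. Depth limits low footprint values: 3 counts amount to between 0.363 and 3.89 CPM per library.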
